A study of Homo sapiens with 8 samples.

Results

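The collagen gene family was followed in HAP1 cells depleted of a subunit of the negative elongation factor NELF. Members were the protein-coding genes whose symbol is COL, a number, the letter A and a number. By that rule 44 of the 60725 genes in the counts table were collagen genes, of which 11 encode fibrillar collagens, 6 encode the type IV collagens of basement membranes and 27 encode other collagens. HAP1 cells are human, nearly haploid and adherent, and derive from a chronic myeloid leukaemia line. All libraries came from a single clone that expresses dCas9-KRAB, a catalytically dead Cas9 fused to a repressor domain that silences the promoter to which a guide RNA directs it. Polyadenylated RNA was extracted 144 h after transduction of the guide RNA. There were 3 control libraries, whose guide is directed against ADAM22, 3 libraries with NELFE knocked down and 2 with NELFB knocked down, with a single guide for each target, so that effects of a guide other than those on its target cannot be told apart from the knockdown. The libraries held between 22037423 and 24444185 counted reads. The study's methods call the knockdown libraries independent biological replicates and say nothing of the kind of the control libraries, and the p-values measure the spread between these libraries alone.

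Collagens are proteins of the extracellular matrix in which 3 chains wind into a triple helix. Fibrillar collagens assemble into the cross-striated fibrils that give tendon, bone, skin and cartilage their strength. Type IV collagens form the sheet-like network of basement membranes, and their genes lie as head-to-head pairs that share the stretch of DNA between the starts of both genes. The other collagens include those that sit on fibrils (FACIT collagens), the beaded filaments of type VI, the anchoring fibrils of type VII, the multiplexins and the transmembrane collagens. NELF binds RNA polymerase II shortly after the start of transcription and holds it there in a paused state, and NELFE and NELFB are subunits of it.

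The knockdowns were visible in their target genes. NELFE had 1262, 1115 and 1098 counts in the control libraries and 58, 55 and 64 in the NELFE knockdown (log2 fold change -4.26 ± 0.11, SE). NELFB had 1858, 1640 and 1807 counts in the control libraries and 74 and 65 in the NELFB knockdown (log2 fold change -4.69 ± 0.11). The labels call ADAM22 not expressed in HAP1, but it had 342, 291 and 257 counts in the control libraries and between 642 and 1102 in the knockdowns. ADAM22 was therefore expressed in this clone, and the control cells held less of its RNA than the knockdowns.

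The type IV genes lie in 3 head-to-head pairs, of which only that of COL4A5 and COL4A6 held called genes, and the stretches before the plus-strand genes are printed here because each pair shares this DNA. They are RefSeq sequences of the plus strand of GRCh38.p14, shortened where an annotated exon reaches into them. Capitals mark matches on either strand to CCAAT, to GGGCGG and to TATAAA, and the 3 patterns did not overlap in these stretches. For COL4A1 and COL4A2, whose RefSeq starts have 126 bases between them, the stretch is chr13:110307158-110307257. For COL4A4 and COL4A3, with 418 bases between the starts, it is chr2:227164454-227164623. For COL4A6 and COL4A5, with 379 bases between the starts, it is chrX:108439588-108439837.
COL4A2 and COL4A1: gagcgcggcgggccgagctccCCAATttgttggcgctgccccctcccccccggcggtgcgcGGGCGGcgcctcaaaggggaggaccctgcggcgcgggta
COL4A3 and COL4A4: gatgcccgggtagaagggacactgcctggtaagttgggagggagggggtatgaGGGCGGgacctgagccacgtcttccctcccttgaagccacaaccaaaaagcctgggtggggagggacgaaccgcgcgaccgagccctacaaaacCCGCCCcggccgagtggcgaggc
COL4A5 and COL4A6: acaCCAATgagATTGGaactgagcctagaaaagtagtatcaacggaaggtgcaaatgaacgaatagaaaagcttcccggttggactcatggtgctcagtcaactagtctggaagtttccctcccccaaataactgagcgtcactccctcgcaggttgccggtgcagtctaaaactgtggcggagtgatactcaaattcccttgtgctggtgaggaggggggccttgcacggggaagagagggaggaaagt

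The stretch of the COL4A1 and COL4A2 pair was 78.0% G and C and held 1 CCAAT and 1 GGGCGG. That of COL4A3 and COL4A4 was 65.9% G and C and held 2 matches to GGGCGG, and that of COL4A5 and COL4A6 was 51.2% G and C and held 2 matches to CCAAT and none to GGGCGG. None of the 3 held TATAAA. The 250 bases before the start of COL4A6 itself held 3 matches to CCAAT, and those before COL4A4 held none of the 3 patterns. Over all 35116 RefSeq promoter windows, 32.0% held CCAAT, 42.6% GGGCGG and 10.7% TATAAA in the 250 bases before the start. In stretches of the same position and length as that of the chromosome 13 pair these shares were 18.9%, 29.9% and 3.43%, and for the chromosome 2 pair 25.4%, 38.3% and 7.44%.

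Control HAP1 cells expressed some of the collagen genes, and a cartilage collagen led them. On the TPM scale, which corrects for gene length and so allows genes to be compared, 17 of the 44 members reached 1 TPM in control cells and 10 of these reached 10 TPM. COL2A1, the main fibrillar collagen of cartilage, had the highest level at 213 ± 34.4 TPM (SD, n = 3) and made up between 36.2% and 38.7% of all collagen TPM in the control libraries. COL6A1, a chain of the beaded filaments of type VI, followed at 83.9 ± 18.7 TPM. The basement membrane chains COL4A5 and COL4A6 came next with 51.6 ± 5.85 and 45.3 ± 6.25 TPM, and their ranges over the control libraries overlapped. COL26A1, a collagen of the other class first described in reproductive tissue, had 37.4 ± 1.14 TPM, and COL6A2, the second type VI chain, had 36.1 ± 12.2 TPM, again with overlapping ranges. The fibrillar genes COL27A1 (21.9 ± 2.85 TPM), COL5A2 (19.5 ± 4.22 TPM) and COL1A1 (10.4 ± 2.78 TPM) and the multiplexin COL18A1 (19.9 ± 7.60 TPM) completed the 10, and the ranges of COL27A1 and COL18A1 and of COL18A1 and COL5A2 overlapped. COL2A1 and COL6A1 did not overlap in this order, and neither did COL6A1 and COL4A5. With the longest transcript as gene length COL6A1 (80.8 ± 18.6 TPM) and COL4A5 (68.4 ± 7.42 TPM) differed by less than their spread, and COL26A1 (28.5 ± 1.08 TPM) came after COL6A2 (40.8 ± 14.2 TPM).

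**Figure D1:**
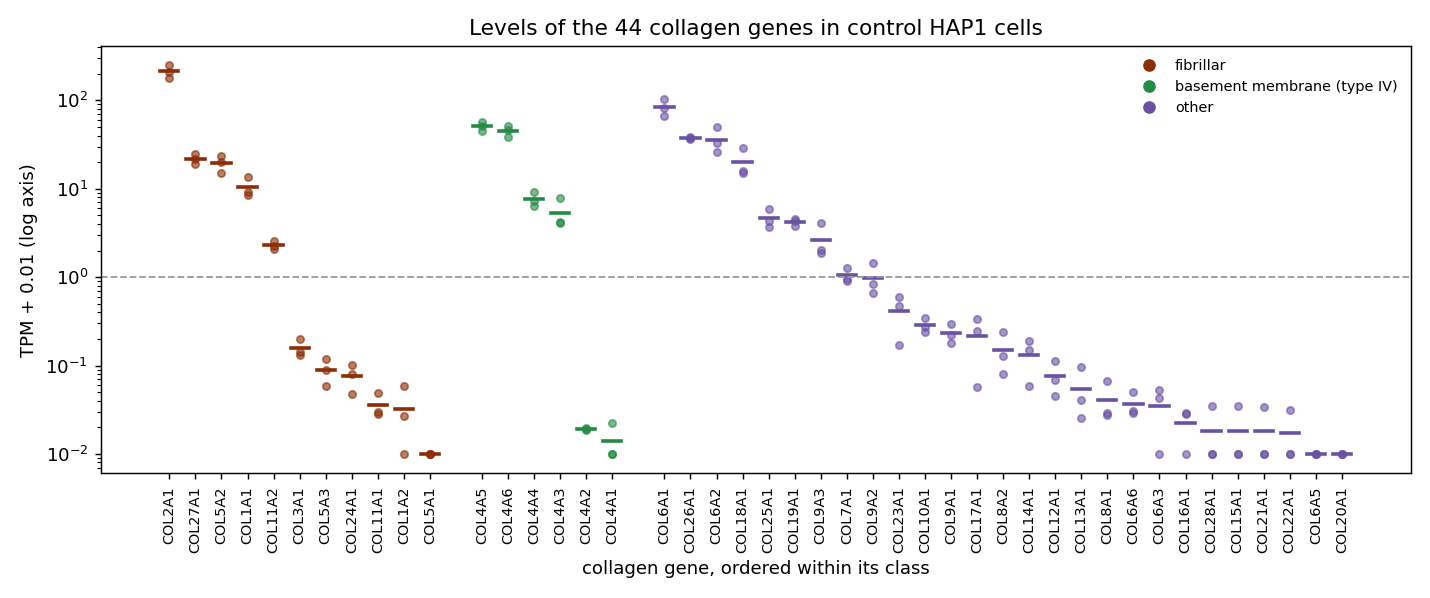
TPM of each of the 44 collagen genes in the 3 control libraries (points) and their mean (bar), on a log axis after adding 0.01 and ordered within the fibrillar, basement membrane and other classes. COL2A1 lies above all other members, 17 members have a mean of at least 1 TPM (dashed line), and COL4A1 and COL4A2 lie at the bottom of the basement membrane class.

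Some chains were expressed without a usual partner, chosen here after their levels were seen. COL1A1 had between 356 and 738 counts per library, whereas its usual partner COL1A2 had 4 or fewer in every library. COL5A2 had between 660 and 2151 counts, and COL5A1, the chain it usually joins, had 2 or fewer. COL6A1 and COL6A2 were both present, and COL6A3, which completes the classical type VI molecule, had 5 or fewer. The type IV pairs of COL4A5 with COL4A6 and of COL4A3 with COL4A4 were present with both members. The chromosome 13 pair COL4A1 and COL4A2, which makes the most common basement membrane collagen of most tissues, was all but silent, with 1 read of COL4A1 in a single library and 4 or fewer reads of COL4A2 in each. In all, 9 members had 3 reads or fewer in every library, namely COL4A1, COL5A1, COL6A5, COL6A6, COL11A1, COL15A1, COL16A1, COL20A1 and COL22A1. Counts this low allow no statement on differences between the groups.

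Depletion of NELF raised 9 and lowered 2 of the 25 collagen genes with enough reads to be tested, when the 5 knockdown libraries were set against the 3 control libraries (edgeR quasi-likelihood test, adjusted p under 0.05 over 16367 genes). Those that rose were COL3A1, COL5A3 and COL5A2 of the fibrillar collagens, COL4A5 and COL4A6 of the basement membrane collagens, and COL12A1, COL7A1, COL19A1 and COL26A1 of the others. COL9A3 and COL2A1 fell. Among all genes tested 13.3% rose and 12.7% fell. Of the 25 collagen genes, 8 had all knockdown libraries above all control libraries (14.8% of all genes tested) and 2, COL9A3 and COL27A1, had them all below (14.0%). The median log2 fold change of the 25 was 0.36, against -0.00 for all genes, and 0.21 without the 5 members that had few control reads. In bulk RNA, fewer cells that express a gene and less RNA per cell cannot be told apart. The 25 include 5 members with a mean under 10 control counts (COL3A1, COL5A3, COL12A1, COL14A1 and COL17A1). These passed the filter on low counts through their knockdown libraries, so the counts over the 25 do not stand for all 44 members. COL23A1, with 12, 14 and 4 control counts, is not among these 5. With at least 10 counts in every library, 6 of the 17 collagen genes then tested rose and 2 fell, where 27.1% of all genes were called.

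**Figure D2:**
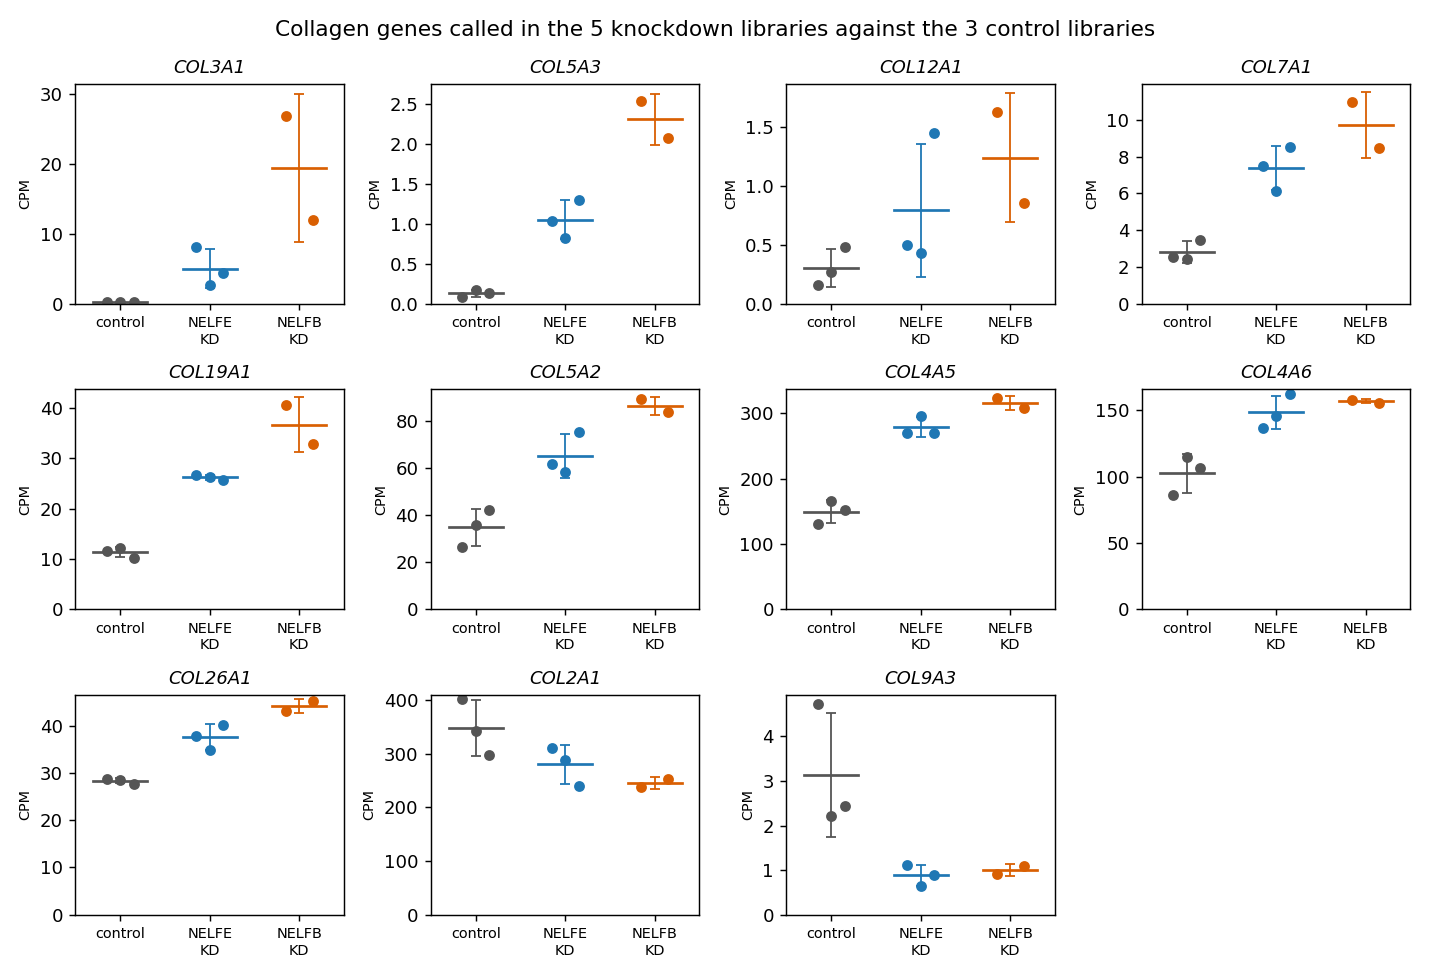
TMM-normalized CPM (counts scaled to a common library size) of the 11 collagen genes called in the 5 knockdown against the 3 control libraries, with points for libraries, a bar for the group mean and error bars for the SD (3 control, 3 NELFE and 2 NELFB libraries). Knockdown libraries lie above control libraries without overlap in 8 panels and below them in that of COL9A3, while the groups overlap for COL12A1 and COL2A1.

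Among the fibrillar collagens, 3 of the 7 tested rose, 1 fell and 3 were not called, with a median log2 fold change of 0.34, where 13.3% of all genes rose and 12.7% fell. COL3A1 and COL5A3 had few control reads and were tested because of their knockdown libraries. The median was -0.13 without them, and with at least 10 counts in every library 1 of the 5 then tested rose and 1 fell, where 27.1% of all genes were called in either direction. The 4 calls became 2, both rises, without control replicate 1 or 2. Of all genes, 25.4% and 16.0% were called in these fits, in place of 26.0%. COL3A1, on chromosome 2 of GRCh38 from 188974373 to 189012746, encodes the type III collagen of skin, vessels and other pliable tissues, and changed most. It had 5, 7 and 5 counts in the control libraries, 195, 61 and 94 after NELFE knockdown and 647 and 282 after NELFB knockdown. Every knockdown library exceeded every control library, and both NELFB libraries exceeded all NELFE libraries. The log2 fold change was 5.45 ± 1.12 (SE; adjusted p = 0.0118), a 43.8-fold rise from very few reads to a level that was still below that of COL5A2. Without NELFB replicate 1 the log2 fold change was 4.78 (adjusted p = 0.00168). Its call was lost when any 1 of the control libraries was left out, with log2 fold changes of 5.33, 5.66 and 5.39 and adjusted p of 0.0644, 0.0502 and 0.0714 without replicate 1, 2 and 3. In the comparisons of each knockdown on its own with control, its call was kept without any 1 of the control libraries.

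COL5A3, a minor type V chain, also came up from near the limit of detection. Its counts were 2, 4 and 3 in control cells, 25, 19 and 28 after NELFE knockdown and 61 and 49 after NELFB knockdown. The 3 groups were fully separated, and the log2 fold change was 3.55 ± 0.53 (adjusted p = 0.00102). Over the alternatives this value ranged from 2.94 to 3.83. For the NELFB knockdown on its own the range was 3.49 to 4.40, against 4.12 in the main fit. COL5A2 on chromosome 2, from 189031898 to 189225312, had 660, 807 and 970 counts in control cells, 1484, 1349 and 1628 after NELFE knockdown and 2151 and 1973 after NELFB knockdown. The groups were again fully separated, with a 2.12-fold rise (log2 fold change 1.08 ± 0.18, adjusted p = 0.00197). COL5A2 and COL3A1 are neighbours that are transcribed towards each other, with 19151 bases between their ends, and the ratio of their levels (TPM of COL3A1 over COL5A2) went from 0.00756 in control cells to 0.0843 in the NELFE and 0.243 in the NELFB knockdown. Both rose, therefore, but by different amounts.

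COL2A1, the most abundant collagen RNA of these cells, fell slightly. It had 9999, 7689 and 6833 counts in the control libraries, 7479, 6675 and 5143 after NELFE knockdown and 5707 and 5945 after NELFB knockdown. The NELFB libraries were below all control libraries, but 1 NELFE library was not, and the log2 fold change was -0.38 ± 0.11 (adjusted p = 0.0261). The call was lost without control replicate 1 (-0.27, adjusted p = 0.0864), control replicate 2 (-0.40, adjusted p = 0.0655), NELFB replicate 1 (-0.34, adjusted p = 0.0658) or NELFB replicate 2 (-0.37, adjusted p = 0.0624). Its share of all collagen TPM fell without overlap, from 36.2% to 38.7% in the control libraries to between 25.4% and 28.0% in the NELFE knockdown and 20.9% and 22.3% in the NELFB knockdown. This share also moves with the other members, and the TPM of COL2A1 itself overlapped between the control libraries (181 to 249) and the NELFE libraries (143 to 199). COL27A1, a fibrillar collagen of cartilage, had between 42.9 and 64.6 CPM in the knockdown libraries, all below the 66.7 to 84.4 CPM of the control libraries. Its log2 fold change of -0.35 ± 0.13 did not pass the test (adjusted p = 0.0631), but it passed without NELFE replicate 3 (-0.26, adjusted p = 0.0305), with no filter on low counts (-0.36, adjusted p = 0.00735) and with DESeq2 (-0.35, adjusted p = 0.0421). COL1A1, the main collagen of bone and skin, had a log2 fold change of -0.13 with a 95% interval from -0.50 to 0.23, which turned to 0.09 without control replicate 1, and COL11A2, a minor cartilage collagen, one of 0.34 with an interval from 0.04 to 0.63 before adjustment over all genes (adjusted p = 0.123).

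Among the basement membrane collagens, 2 of the 4 tested rose and none fell, where 13.3% of all genes rose and 12.7% fell. The median log2 fold change was 0.23, and the members fell apart by pair. COL4A5, on the X chromosome from 108439838 to 108697545, had 45.6, 57.2 and 51.9 TPM in control cells, 96.7, 105 and 90.7 TPM after NELFE knockdown and 113 and 108 TPM after NELFB knockdown. All knockdown libraries lay above all control libraries, and the log2 fold change was 0.97 ± 0.09 (adjusted p = 0.000103), a 1.96-fold rise. COL4A6, its partner on the minus strand, had 38.5, 50.8 and 46.5 TPM in control cells, 62.8, 66.3 and 69.8 TPM after NELFE knockdown and 70.3 and 70.0 TPM after NELFB knockdown. It rose 1.48-fold (log2 fold change 0.57 ± 0.10, adjusted p = 0.00197), also without overlap. The rise was larger for COL4A5, and the TPM ratio of COL4A5 to COL4A6 went from between 1.12 and 1.18 in the control libraries to between 1.30 and 1.60 in the knockdown libraries.

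The chromosome 2 pair was not called, and the chromosome 13 pair had too few reads to be tested. COL4A3 and COL4A4, the chains that with COL4A5 make the mature basement membrane of the kidney filter, were expressed at a lower level. COL4A4 had 9.13, 7.31 and 6.38 TPM in control cells, between 6.61 and 8.04 TPM after NELFE knockdown and 7.03 and 6.80 TPM after NELFB knockdown. These groups overlapped, and the 95% interval of the log2 fold change ran from -0.32 to 0.11, with a value that turned from -0.11 to 0.03 without control replicate 1. COL4A3 had 7.86, 4.16 and 4.08 TPM in control cells and between 3.37 and 4.30 TPM in the 5 knockdown libraries, so that control replicate 1 stood alone. Its log2 fold change of -0.48 ± 0.19 was not called (adjusted p = 0.0923), became -0.63 with an adjusted p of 0.0448 without control replicate 3, was -0.48 with an adjusted p of 0.0450 with no filter on low counts, and was -0.11 without control replicate 1. A part of the COL4A3 exons, 6.82%, is shared with MFF-DT on the other strand, and reads were counted without strand. Among the called members of the family, the largest shares, on either strand, were 3.98% for COL5A3 and 3.2% for COL9A3, the latter with TCFL5. COL4A1 and COL4A2 remained near 0 in all 8 libraries. Summed over the class, the basement membrane collagens had 290 ± 24.1 CPM in control cells (SD, n = 3), 460 ± 16.9 CPM in the NELFE knockdown (n = 3) and 504 ± 11.4 CPM in the NELFB knockdown (n = 2), with no overlap between the groups, and this sum is made up largely of COL4A5 and COL4A6.

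**Figure D3:**
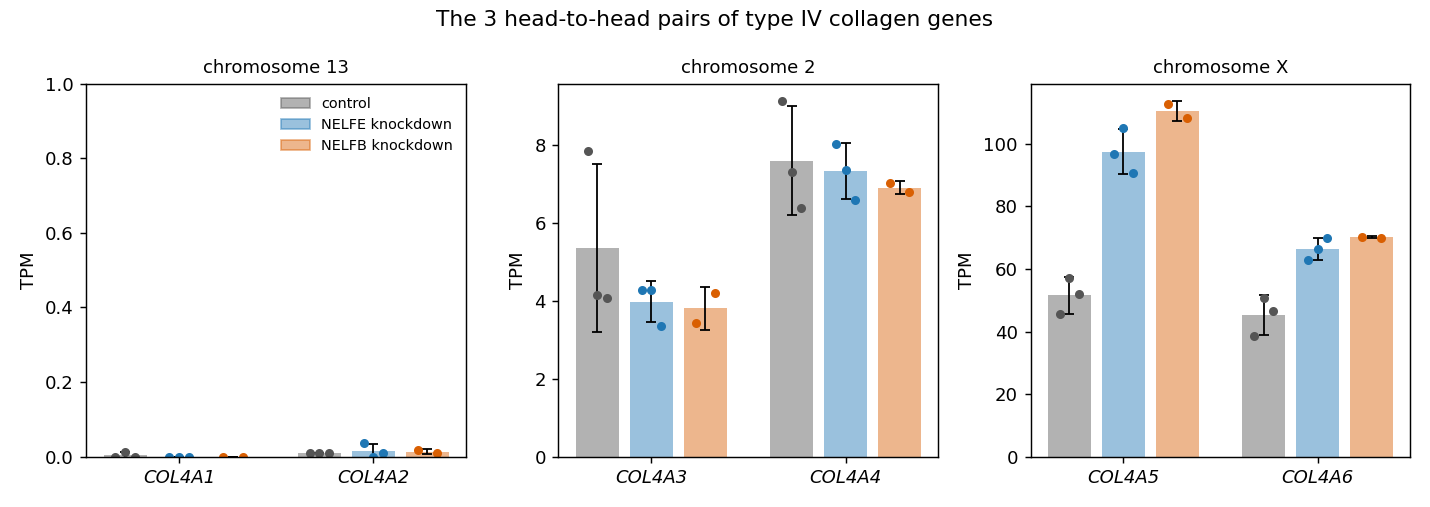
TPM of the 6 type IV collagen genes, drawn as head-to-head pairs, in control, NELFE knockdown and NELFB knockdown libraries (points), with group means (bars) and SD (error bars). COL4A1 and COL4A2 are near 0, COL4A3 and COL4A4 overlap between groups, and COL4A5 and COL4A6 lie above the control libraries in all 5 knockdown libraries. The scale of the axis differs between panels.

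Among the other collagens, 4 of the 14 tested rose, 1 fell and 9 were not called, where 13.3% of all genes rose and 12.7% fell. The median log2 fold change was 0.43. It was 0.25 without COL12A1, COL14A1 and COL17A1, which had a mean under 10 control counts and were tested because of their knockdown libraries. COL23A1, with 12, 14 and 4 control counts, stayed in this median. With at least 10 counts in every library 3 of the 8 then tested rose and 1 fell, where 27.1% of all genes were called. COL19A1, a FACIT collagen of muscle and brain, had 288, 274 and 235 counts in control cells, 642, 608 and 551 after NELFE knockdown and 975 and 773 after NELFB knockdown. The 3 groups were fully separated, and it rose 2.69-fold (log2 fold change 1.43 ± 0.16, adjusted p = 0.000208). COL7A1, which makes the anchoring fibrils under the epidermis, had 63, 55 and 80 counts in control cells, 180, 142 and 183 after NELFE knockdown and 264 and 199 after NELFB knockdown. All knockdown libraries lay above all control libraries, while the NELFE and NELFB libraries overlapped after scaling to library size, and it rose 2.95-fold (log2 fold change 1.56 ± 0.21, adjusted p = 0.000572). COL26A1 had 717, 642 and 636 counts in control cells, between 806 and 911 after NELFE knockdown and 1037 and 1064 after NELFB knockdown. It rose 1.42-fold without overlap (log2 fold change 0.51 ± 0.09, adjusted p = 0.00265). COL12A1, a FACIT collagen of tendon and fascia, had 4, 6 and 11 counts in control cells, 12, 10 and 31 after NELFE knockdown and 39 and 20 after NELFB knockdown. With this overlap its log2 fold change of 1.67 ± 0.53 just passed (adjusted p = 0.0384), and the call was lost without control replicate 1 (1.35, adjusted p = 0.116), control replicate 2 (1.60, adjusted p = 0.117), NELFE replicate 3 (1.49, adjusted p = 0.0560), NELFB replicate 1 (1.40, adjusted p = 0.0858) or NELFB replicate 2 (1.72, adjusted p = 0.0630).

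COL9A3 was the member that fell most. It encodes a chain of the FACIT collagen that coats the fibrils of COL2A1 in cartilage, and had 118, 50 and 56 counts in control cells, 27, 15 and 19 after NELFE knockdown and 22 and 26 after NELFB knockdown. All knockdown libraries lay below all control libraries although control replicate 1 was far above the other two, and the log2 fold change was -1.74 ± 0.28 (adjusted p = 0.00148), a 3.34-fold fall. The other chains of the same molecule, COL9A1 and COL9A2, had log2 fold changes of -0.28 with a 95% interval from -1.09 to 0.52 and -0.54 with an interval from -1.16 to 0.08. The type VI genes COL6A1 and COL6A2 lie 93061 bases apart on chromosome 21. COL6A1 had 3439, 2519 and 2067 counts in control cells and between 2117 and 3609 in the knockdowns, and COL6A2 had 1593, 959 and 783 in control cells and between 816 and 1661 in the knockdowns. Groups overlapped for both, and their log2 fold changes of 0.25 ± 0.15 and 0.36 ± 0.23 were not called (adjusted p = 0.256 and 0.285). With 1 library left out they ranged from 0.11 to 0.42 and from 0.18 to 0.65, and COL6A1 passed without NELFE replicate 3 (0.34, adjusted p = 0.0466). With offsets for the G and C content of genes both passed (0.33 and 0.49, adjusted p = 0.0369 and 0.0460). COL18A1 had a log2 fold change of -0.08 with an interval from -0.54 to 0.37 that turned to 0.26 without control replicate 1 and to 0.03 without NELFE replicate 3, and 18.5% of its exonic bases are shared with SLC19A1.

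Promoter sequences were also compared outside the type IV pairs. The RefSeq table used here matched 32 of the 44 members, and no window is shown for COL1A1, COL1A2, COL2A1, COL3A1, COL5A2, COL6A1, COL6A5, COL8A1, COL9A3, COL14A1, COL20A1 and COL22A1. In the 250 bases before the start, 18 of the 32 held GGGCGG, 9 held CCAAT and 5 held TATAAA. COL5A3 and COL7A1 are shown because they had the largest folds among the called members with a window whose knockdown libraries all lay above the control libraries. Both are read from the minus strand of GRCh38.p14, at chr19:10010505-10010754 and chr3:48595330-48595579, with the same matches in capitals.
COL5A3: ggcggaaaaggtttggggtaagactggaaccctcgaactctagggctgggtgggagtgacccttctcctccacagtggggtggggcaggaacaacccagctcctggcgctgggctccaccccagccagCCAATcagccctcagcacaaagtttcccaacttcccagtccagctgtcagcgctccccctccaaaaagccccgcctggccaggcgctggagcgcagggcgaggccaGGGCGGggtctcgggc
COL7A1: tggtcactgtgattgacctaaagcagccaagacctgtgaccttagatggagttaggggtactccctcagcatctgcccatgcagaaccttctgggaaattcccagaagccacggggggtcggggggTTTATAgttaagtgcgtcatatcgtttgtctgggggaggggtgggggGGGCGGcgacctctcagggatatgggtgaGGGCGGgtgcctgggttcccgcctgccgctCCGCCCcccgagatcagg

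The COL5A3 window was 66.0% G and C with 1 CCAAT and 1 GGGCGG, and the COL7A1 window was 60.8% G and C with 1 TATAAA on the opposite strand and 3 matches to GGGCGG. The window of COL19A1 held none of the 3 patterns.

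Each knockdown was next compared with the control cells on its own, to ask whether the collagens moved with either guide. The study reports that NELFB protein was also lost on NELFE depletion, so the knockdowns do not remove separate subunits. NELFB RNA was slightly lower in the NELFE knockdown than in control cells (log2 fold change -0.24 ± 0.07, edgeR, adjusted p = 0.0481). These comparisons share the control libraries. Both include COL3A1, COL5A3 and COL12A1, which were tested because of their knockdown libraries. In the NELFE knockdown 8 of the 25 collagen genes tested rose and 1, COL9A3, fell, where 7.92% of all 16852 genes tested rose and 7.04% fell. With at least 10 counts in every library, 6 of the 17 then tested rose and 1 fell, where 16.2% of all genes were called. In the NELFB knockdown, with that same minimum, 6 of the 17 rose and 2 fell, where 20.3% of all genes were called. With the filter of the main test 9 of the 25 rose and 2, COL9A3 and COL2A1, fell, where 10.6% of all genes rose and 8.88% fell. Without NELFB replicate 1 or 2 only 7 of these 11 calls were left in either case, all of them rises, while the share of all genes called went from 19.5% to 3.45% and 7.20%. COL12A1 and COL2A1 were lost, and so were COL9A3 (-1.51 and -1.78 in place of -1.63, adjusted p = 0.147 and 0.0783) and COL4A6 (0.60 and 0.62 in place of 0.61, adjusted p = 0.0841 and 0.0512). COL12A1 and COL2A1 were the members called in the NELFB and not in the NELFE knockdown. COL12A1 had 2.03 ± 0.60 with NELFB (adjusted p = 0.0376) and 1.36 ± 0.59 with NELFE (adjusted p = 0.145), COL2A1 had -0.50 ± 0.14 (adjusted p = 0.0287) and -0.31 ± 0.12 (adjusted p = 0.105), and neither was called in a direct test between the knockdowns. In the NELFE comparison COL2A1 passed without control replicate 3, and with no filter on low counts COL12A1, COL2A1, COL27A1 and COL4A3 all passed, which gave 9 rises and 4 falls among all 44 members, where 9.69% of all genes were called. In the NELFB comparison the call of COL12A1 was lost without control replicate 1 or 2 (adjusted p = 0.0743 and 0.104) and that of COL2A1 without control replicate 2 (adjusted p = 0.0690). By log2 fold change, COL3A1 had 4.35 ± 0.59 with NELFE and 6.30 ± 0.57 with NELFB (5.59 without NELFB replicate 1), COL5A3 had 2.98 ± 0.38 and 4.12 ± 0.37, and COL5A2 had 0.90 ± 0.16 and 1.32 ± 0.17. COL4A5 had 0.89 ± 0.09 and 1.08 ± 0.10, COL4A6 0.53 ± 0.11 and 0.61 ± 0.12, COL7A1 1.38 ± 0.20 and 1.79 ± 0.22, COL19A1 1.21 ± 0.11 and 1.70 ± 0.12, and COL26A1 0.41 ± 0.08 and 0.64 ± 0.09.

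**Figure D4:**
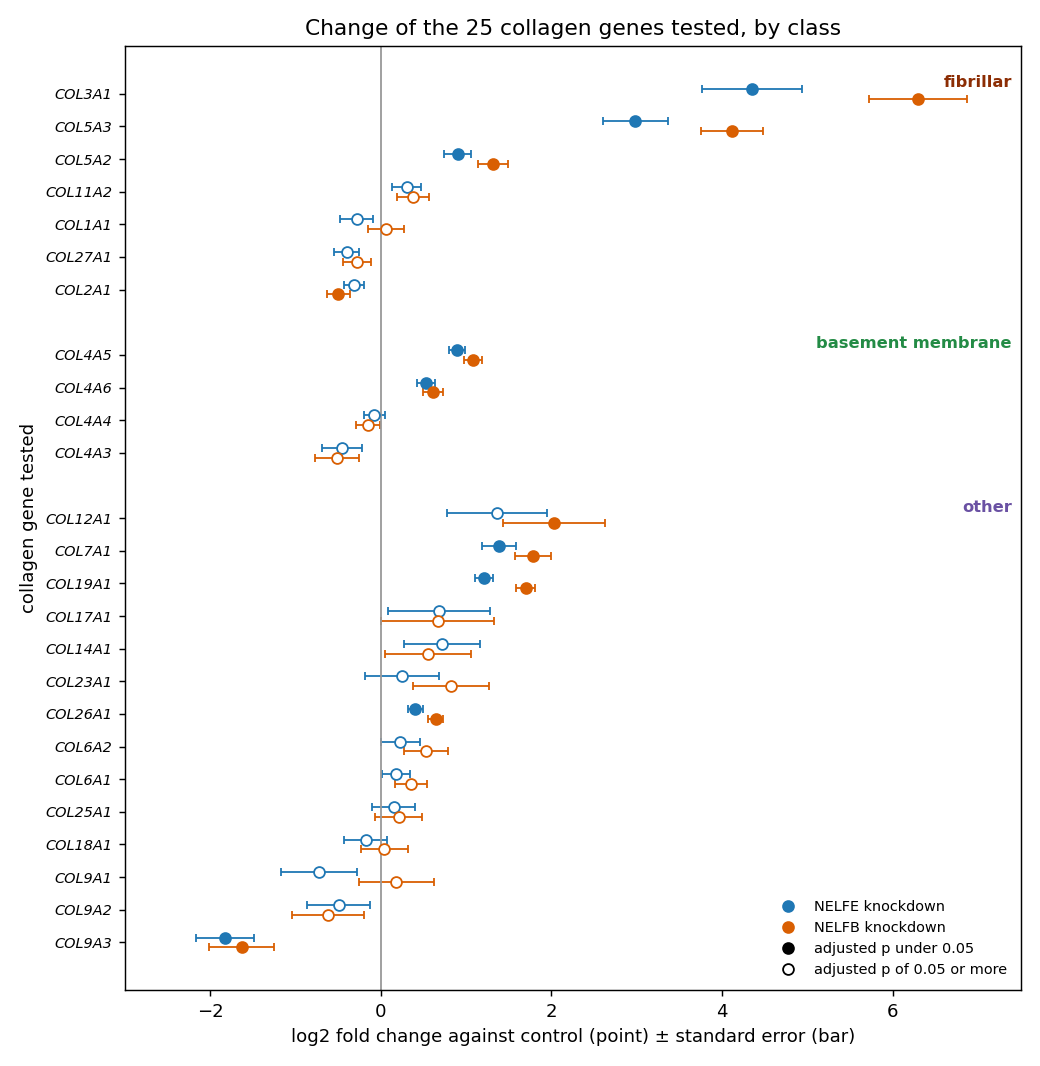
Log2 fold change against control with its standard error for the 25 collagen genes tested, by class, in the NELFE and the NELFB knockdown, with filled points where the adjusted p was under 0.05. COL3A1 and COL5A3 lie farthest to the right, COL9A3 farthest to the left, and filled points right of 0 number 8 for the NELFE and 9 for the NELFB knockdown.

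When the knockdowns were set against each other, no collagen gene passed the test (edgeR), where 0.315% of all genes did. DESeq2 called none either. At an unadjusted p under 0.05, which 5.12% of all genes had, there were 5, COL3A1, COL5A3, COL19A1, COL5A2 and COL26A1, all lower in the NELFE knockdown. The difference, as log2 of NELFE over NELFB, was -1.95 for COL3A1 (95% interval from -2.74 to -1.15, adjusted p = 0.137), -1.14 for COL5A3 (-1.66 to -0.61, adjusted p = 0.251) and -0.49 for COL19A1 (-0.71 to -0.27, adjusted p = 0.228). It was -0.41 for COL5A2 (-0.75 to -0.08) and -0.24 for COL26A1 (-0.41 to -0.06). Without NELFE replicate 1, COL3A1 passed, and without control replicate 1 and NELFE replicate 3 together COL19A1, COL5A2 and COL5A3 did, where 1.78% of all genes did. The intervals do not show that the knockdowns acted alike on these genes.

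The machinery that makes, anchors and degrades collagen was examined as lists, and their counts stand beside the 13.3% of all genes that rose and the 12.7% that fell, and their medians beside the value of -0.00 for all genes. Of 36 genes of collagen biosynthesis 32 were tested, and 9 rose and 5 fell, with a median log2 fold change of 0.07. The chaperone SERPINH1 (-0.07 ± 0.11), the prolyl hydroxylase subunit P4HB (0.06 ± 0.08) and the lysyl hydroxylases PLOD1 (0.02 ± 0.08), PLOD2 (0.01 ± 0.08) and PLOD3 (-0.12 ± 0.07) were not called. The largest rises were those of the prolyl 3-hydroxylase P3H2 (2.78 ± 0.71), with 0, 3 and 9 control counts, and of the cross-linking enzymes LOXL4 (1.25 ± 0.42) and LOXL2 (1.15 ± 0.19). PCOLCE, an enhancer of procollagen cleavage, fell (-0.76 ± 0.20), as did CRTAP of the prolyl 3-hydroxylation complex (-0.56 ± 0.06) and the procollagen protease ADAMTS3 (-0.43 ± 0.11). The call of P3H2 was lost without control replicate 2 (2.63, adjusted p = 0.0628) and its value moved to 2.17 without control replicate 1 and 4.14 without control replicate 3. The call of PCOLCE was lost without control replicate 1 (-0.40, adjusted p = 0.0542) and that of ADAMTS3 without control replicate 2 (-0.39, adjusted p = 0.0695). P3H2 and LOXL4 were tested because of their knockdown libraries, and with at least 10 counts in every library 7 of the 30 genes then tested rose and 5 fell, where 27.1% of all genes were called. LOXL4, with 4 to 17 counts per library, lost its call without any 1 of 7 of the libraries, with adjusted p up to 0.146. The count of 14 calls itself was 9, 6 and 9 without control replicates 1, 2 and 3. In these fits 25.4%, 16.0% and 17.8% of all genes were called, in place of 26.0%.

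Of the collagen receptors 9 of 11 were tested, and 4 rose and 1 fell (3 and 1 of 8 without ITGA11, which had few control reads), with a median log2 fold change of 0.28. CD44, a matrix receptor, rose from 17, 17 and 13 control counts to between 32 and 131 (2.42 ± 0.47), a call lost without control replicate 1 and NELFE replicate 3 together (2.24, adjusted p = 0.0580). DDR1, a receptor kinase for collagen, rose by 0.52 ± 0.10 and its relative DDR2 fell (-0.79 ± 0.16). The integrin chain ITGA11 was tested because of its knockdown libraries and rose by 1.40 ± 0.47 from 3, 10 and 3 counts, a call that was lost in 6 of the 8 fits that left out a library (adjusted p up to 0.153) and whose value was 2.23 without control replicate 2, and ITGB1, the chain shared by the collagen-binding integrins, rose by 0.28 ± 0.07, a call lost without control replicate 3 (0.26, adjusted p = 0.0630). Of 14 genes of collagen breakdown 7 were tested and 3 rose, with a median of 0.57, and these were the gelatinase MMP2 (1.86 ± 0.39, from 10, 5 and 4 control counts), the collagen-cleaving cathepsin CTSK (0.98 ± 0.19) and the inhibitor TIMP2 (0.57 ± 0.11). MMP2 was tested because of its knockdown libraries, and 2 of the other 6 rose. The list holds both enzymes and their inhibitors, and the collagenases MMP1, MMP8 and MMP13 had at most 1 read per library.

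Of 18 partners in basement membranes 13 were tested and 4 rose, with a median of 0.16. SPARC, which binds collagens and type IV networks, had 3449, 3270 and 3823 counts in control cells and between 7724 and 15815 in the knockdowns, without overlap (1.71 ± 0.18, adjusted p = 0.000236). The laminin chains LAMA2 (0.67 ± 0.17) and LAMB1 (0.56 ± 0.11) also rose, the former with its call lost without control replicate 1 (0.54, adjusted p = 0.0509), while the nidogen NID1 (-0.14 ± 0.09) and the perlecan gene HSPG2 (0.19 ± 0.22) were not called. Of 20 partners of fibrils only 8 had enough reads to be tested, and 3 rose and 1 fell, with a median of 0.24. THBS1 rose by 2.67 ± 0.52, from 319, 664 and 872 control counts to between 1986 and 6151. MATN2 rose by 1.04 ± 0.26, a call lost without control replicate 1 (0.88, adjusted p = 0.0629) or 2 (0.96, adjusted p = 0.0597), and the fibrillin FBN1 by 0.55 ± 0.11. Fibronectin (FN1) fell slightly (-0.29 ± 0.09), a call lost without control replicate 1 or 2, NELFE replicate 2 or NELFB replicate 2 (adjusted p up to 0.109). The small proteoglycans of fibrils DCN, LUM and BGN had at most 1 read per library.

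Of 20 regulators of collagen genes 17 were tested, and 5 rose and 2 fell, with a median log2 fold change of 0.17. CCN2, a matrix protein induced by TGF-beta, rose most (2.68 ± 0.50), from 121, 116 and 136 control counts to 372, 408 and 740 in the NELFE and 1316 and 1116 in the NELFB knockdown. Its call was lost without control replicate 3 (2.76, adjusted p = 0.0501) and without control replicate 1 and NELFE replicate 3 together (2.61, adjusted p = 0.0774). The cartilage regulator SOX6 rose by 0.88 ± 0.12 and the receptor TGFBR2 by 0.74 ± 0.12. TGFB1 (-0.41 ± 0.12) and the general factor SP1 (-0.19 ± 0.06) fell, the former with its call lost without control replicate 1 (-0.22, adjusted p = 0.106), NELFE replicate 1 (-0.40, adjusted p = 0.0612) or NELFE replicate 2 (-0.39, adjusted p = 0.0638), and SP1 with its call lost without any 1 of 7 of the libraries (adjusted p up to 0.0998). The rises of SOX5 (0.36 ± 0.12) and SMAD3 (0.25 ± 0.08), a transducer of TGF-beta signals, were each lost in 7 of the 8 fits that left out a library (adjusted p up to 0.116 and 0.150). Of the 5 rises, SOX6 and TGFBR2 kept their call without control replicate 3. SOX9, the activator of COL2A1 in cartilage, had no read in any library.

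Markers of other cell types were read beside these results, and their part in them was not tested. Of 4 cartilage markers, SOX9 was at 0, ACAN and MATN1 had at most 13 reads per library, and COMP was the most abundant with 8.81, 4.59 and 4.39 TPM in the control libraries. The cartilage regulators SOX5 and SOX6 were expressed at 12.9 ± 1.11 and 4.26 ± 0.0316 TPM in control cells (SD, n = 3). Among 12 mesenchymal markers the summed level lay between 342 and 468 TPM, of which VIM made up most, and DCN, LUM and FAP were at 0 in every library. PDGFRA rose (0.40 ± 0.09) and FN1 fell. The 4 epithelial markers summed to between 39.6 and 41.9 TPM in the control libraries and to between 46.7 and 86.6 TPM in the knockdowns and were mostly KRT18, and KRT18 (0.56 ± 0.15) and KRT8 (1.65 ± 0.36) rose in the knockdowns, while EPCAM and CDH1 had at most 7 reads. The 5 endothelial markers summed to at most 0.774 TPM. The 8 blood markers, which the leukaemic origin of the line could lead to look for, summed to between 0.150 and 1.85 TPM, with HBG1 and MPO at 0. The haematopoietic marker CD34 had 3, 3 and 1 reads in the control libraries and between 6 and 67 in the knockdowns.

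The sums over classes show how these changes weigh in the collagen RNA of the cell. All collagens together had 570 ± 72.6 TPM in control cells (SD, n = 3), 649 ± 75.8 TPM in the NELFE knockdown (n = 3) and 707 ± 4.56 TPM in the NELFB knockdown (n = 2). The control and NELFE libraries overlapped in this sum. Fibrillar collagens had 268 ± 35.8, 244 ± 30.8 and 247 ± 2.33 TPM in the same order, with overlap. Within this sum COL3A1, COL5A2 and COL5A3 rose and COL2A1 fell. In CPM, which is not corrected for gene length, the fibrillar sum without COL2A1 was between 132 and 145 in the control libraries. It was between 147 and 162 in the NELFE knockdown and 187 and 212 in the NELFB knockdown, without overlap. This gives no added support for a rise, since the member left out is the called fibrillar gene that fell. The other collagens had 192 ± 41.6, 230 ± 42.9 and 268 ± 9.83 TPM, in which type VI chains predominate. The NELFE libraries overlapped the control libraries in this sum, and both NELFB libraries lay above them.

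Among the libraries, control replicate 1 and NELFE replicate 3 stood apart from the others of their group, with a chi-square of their counts over genes, per degree of freedom, of 17.1 and 29.4 for control replicate 1 against replicates 2 and 3, and of 21.1 and 21.4 for NELFE replicate 3 against replicates 1 and 2. The remaining pairs within groups had values between 4.25 and 5.99. Without both libraries 13 collagen genes were called in place of 11, and the share of all genes called went from 26.0% to 39.9%. COL3A1, COL12A1 and COL2A1 were lost (log2 fold changes of 5.53, 1.18 and -0.23, adjusted p = 0.0691, 0.149 and 0.131), and COL6A1 (0.51), COL6A2 (0.77), COL11A2 (0.47), COL18A1 (0.38) and COL25A1 (0.50) were gained, all higher in the knockdowns. In the NELFE comparison the same 5 were gained and COL3A1 was lost (4.32, adjusted p = 0.111), so that 13 were called in place of 9, while 36.0% of all genes were called in place of the 7.92% that rose and 7.04% that fell with all libraries. In the NELFB comparison 17 were called in place of 11, while the share of all genes went from 19.5% to 41.5%.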

How the data were processed

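RNA-seq was analysed from the raw counts deposited by the authors, single-end reads of 65 bases that were counted per gene by STAR 2.5.4a, without strand, against the Gencode v24 annotation of GRCh38. The submitters' processing notes also name FastQC 0.11.6. The values were not normalized or filtered, and each column is 1 library. GENCODE v44 supplied symbols and exon lengths and matched 97.4% of the genes with reads.

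The main test was the robust quasi-likelihood fit of edgeR 4.0.16 (R 4.3.3) after filterByExpr and TMM, with Benjamini-Hochberg adjustment over all genes, and genes were called at an adjusted p under 0.05. All 5 knockdown libraries were set against the 3 control libraries, and a model of 3 groups gave each knockdown against control and against the other. The former fit treats the knockdown libraries as a single group, so differences between the NELFE and NELFB knockdowns count there as spread. Intervals of log2 fold changes are 95% intervals from the standard error, before adjustment. CPM are TMM-normalized, and TPM use the union of exons. A floor of 3 reads in every library marks genes with too few reads to compare. Reads carry no molecular identifiers, so depth covers counting error only. The script was tested on simulated data.

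Named genes were the collagens called in any comparison, the highest in control cells or in their class, adjacent pairs, and the 3 called genes of largest change in each direction of each related list. Further genes were named outside this rule, among them SERPINH1, P4HB, PLOD1, PLOD2, PLOD3, NID1, HSPG2, SOX5 and SMAD3. The members, lists and tests were chosen with earlier results of these data known. Alternatives were DESeq2 1.42.0, its size factors, other filters, a replicate block, protein-coding genes only, other models, a prior count of 2, transcript length, and each library left out. GC offsets and the omission of the 2 libraries that stood apart were added after the data were seen.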

Additional observations from a re-analysis of the deposited data

Results flagged for a closer look

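TGFB3, 1 of the 20 regulators of collagen genes examined, differed between the knockdowns in a direct test, which no collagen gene did. It had 121, 104 and 99 counts in the control libraries, 144, 127 and 157 in the NELFE knockdown and 48 and 39 in the NELFB knockdown. The NELFE libraries lay above and the NELFB libraries below all control libraries. The log2 fold change of NELFE over NELFB was 1.77 ± 0.20 (SE; edgeR, adjusted p = 0.00233). The cause was not tested. Single values were not tested for outlying libraries, since no group held more than 3.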

How the results depend on the processing

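COL4A5, COL4A6, COL5A2, COL7A1, COL19A1, COL26A1 and COL9A3 were called for both knockdowns together under every alternative run, and COL5A3 under each in which it was tested. With at least 10 counts in every library, COL3A1, COL5A3 and COL12A1 were not tested, and 2 fibrillar genes were called in place of 4. With no filter 14 of all 44 members were called, with COL21A1, COL27A1 and COL4A3 gained, where 12.6% of all genes were called. Leaving out a library gave between 8 and 12 collagen calls in place of 11, between 2 and 5 fibrillar calls, and between 6 and 14 calls in biosynthesis in place of 14, while the share of all genes called lay between 16.0% and 31.4% in place of 26.0%. For the NELFB knockdown it gave between 7 and 11, where leaving out either NELFB replicate assumes that the lone library varies like the other groups, and between the knockdowns between 0 and 1. Without control replicate 1 and NELFE replicate 3 together, 17 collagen genes were called for the NELFB knockdown, 3 between the knockdowns (COL19A1, COL5A2 and COL5A3), and 8 of the other class in place of 5. Directions turned for genes that were not called. With 1 library left out, log2 fold changes ranged from -0.21 to 0.035 for COL4A4, from -0.26 to 0.095 for COL1A1 and from -0.24 to 0.26 for COL18A1, with the positive values without control replicate 1 and, for COL18A1, also without NELFE replicate 3 (0.026). Without both libraries they were 0.049, 0.11 and 0.38, and COL18A1 was at 0.056 with GC offsets, which gave 15 collagen calls, with COL6A1, COL6A2, COL11A2 and COL27A1 gained, while 27.1% of all genes were called. COL18A1 was called without both libraries (adjusted p = 0.00431). The causes were not tested. Replicate numbers did not pair all of the samples. The deviations of same-numbered control and NELFE libraries correlated at 0.358, 0.0645 and 0.562. Those of control and NELFB libraries did so at -0.0352 and -0.0216 and those of NELFE and NELFB libraries at 0.12 and 0.26. NELFE replicate 2 correlated best with control replicate 1 (0.295). Over the tested collagens the values were 0.598, -0.00997 and 0.788 for control and NELFE libraries. They were -0.272 and -0.0780 for control and NELFB libraries, and 0.284 and 0.683 for NELFE and NELFB libraries. With the replicate number as a block, 13 collagen genes were called for both knockdowns, with COL27A1 (-0.41, adjusted p = 0.000940) and COL6A2 (0.28, adjusted p = 0.0252) gained, and 2 between the knockdowns (COL3A1 and COL5A2). The share of all genes called went from 26.0% to 34.4% and from 0.315% to 1.16%. For the NELFE knockdown the block gave 12 in place of 9, with COL12A1, COL27A1 and COL2A1 gained, while 28.3% of all genes were called. With the longest transcript as gene length the collagen sum in control cells was 573 in place of 570 TPM. No alternative moved the median of all genes by as much as 0.1 (log2). Members with few control reads are limited by depth.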

Other observations

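COL21A1, a FACIT collagen, was not tested because of its low counts, and is named after its values were seen. It had 1, 0 and 0 reads in the control libraries, 4, 1 and 2 in the NELFE knockdown and 10 and 6 in the NELFB knockdown, and it was called only when no filter on low counts was used. The matrix glycoprotein TNC, a partner of fibrils also named after its values were seen, had 1, 1 and 0 reads in the control libraries, 0, 0 and 7 in the NELFE knockdown and 30 and 9 in the NELFB knockdown.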
